A study of Sus scrofa with 32 samples.

Results

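Solute carriers are membrane proteins that move nutrients, ions, metals, vitamins and waste products across cell and organelle membranes. They are named by family number, and members of a family often share a kind of cargo. In the liver they take up amino acids, organic ions and metals from blood, exchange bicarbonate and other anions, and supply mitochondria with phosphate and nucleotides. The genes described here are those whose array transcript accession maps to a pig symbol made of SLC and a number, leaving out SLC2A2, SLC15A1, SLC34A1 and every SLCO gene. A gene was kept if the scanner software called its probe well above background on 3 or more of the 4 arrays in any group, and a gene with several such probes is represented by the brightest. By this rule 44 genes were on the array and 37 were kept, among 1596 features with a symbol and 28673 features tested in all.

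The study profiled liver of fetal pigs on gestational days 37, 50, 70 and 110, on 32 one-colour arrays, each with the RNA of 1 fetus. All fetuses came from gilts that had had 1 uterine horn and 1 ovary removed and were then inseminated, which crowds the remaining horn. The 8 groups were control and runt (growth-retarded) fetuses at each of the 4 days, with 4 arrays a group. The labels describe the controls and runts as littermate pairs from different gilts, so the controls too developed in a crowded uterus, and sex is not given. No genotype or drug differed between groups.

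Of the 37 genes, 31 were well above background on all 32 arrays. The exceptions were SLC31A1 on 31 arrays, SLC22A2 on 26, SLC4A4 on 22, SLC23A2 on 14, SLC25A25 on 10 and SLC17A1 on 8. SLC17A1, SLC23A2 and SLC25A25 lay just inside the rule, with at most 3 arrays of a group. SLC28A1 and SLC5A11 lay just outside it with at most 2 arrays of a group, and SLC22A8 reached 1. SLC12A1, SLC26A3 and SLC9A2 were well above background on no array. One of the 37, SLC9A3R1, carries a carrier name but encodes a scaffold protein and not a carrier.

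Levels are given on the log2 scale relative to the 75th percentile of the same array, so a level of 0 is that percentile and a difference of 1 is a 2-fold change. Levels of different probes were not compared. Between days a gene was called at a Benjamini-Hochberg adjusted p under 0.05 (limma, over all features) and a change of 2-fold or more. For runts against controls the adjusted p alone decided. Between 51.3% and 69.4% of spots were well above background on each array, and replicates of a group correlated between 0.961 and 0.985 over features. Day coincides with array position on the slide for every array but the first day-50 runt, which was alone on its slide and scanned on another date, so day and position cannot be told apart. The labelled tissue was checked against the summed level of 8 measured hepatocyte markers, whose median over arrays was 2540 times the 75th percentile in day-37 controls and 2620 times in day-110 controls. Over the same span the summed level of 4 erythroid markers fell from 86.8 to 149 at day 37 to 2.71 to 13.5 at day 110, and that of 5 cell cycle markers from 136 to 160 down to 7.93 to 21.7. The 5 Kupffer cell and monocyte markers went the other way, from 11.9 to 23.1 up to 86.2 to 124, and no measured marker of these lists was at background in either group. The 4 granulocyte markers lay between 18.3 and 76.1 at day 37 and between 47.9 and 64.7 at day 110. The 3 megakaryocyte markers lay between 23.9 and 40.6, then between 4.20 and 7.71, and the 3 endothelial markers between 10.1 and 12.8, then between 28.2 and 35.9. The 2 bile duct markers lay between 0.444 and 1.17, then between 3.49 and 5.71, the 2 stellate markers between 4.78 and 8.78, then between 8.96 and 14.5, and the 5 lymphocyte markers between 2.67 and 3.39, then between 1.08 and 1.49. In day-37 controls 1 of the 2 stellate markers and 1 of the 5 lymphocyte markers were at background. These shifts run beside every change over gestation given below, and their part in those changes was not tested. In whole tissue, fewer cells of a type and less RNA per cell cannot be told apart.

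Over the whole control course, from day 37 to day 110, 10 of the 37 genes were called, 5 higher and 5 lower. Of all features 29.3% were called, 15% higher and 14.3% lower, so the share of carriers was near the background. SLC4A4 and SLC17A1, both among the 10, were nowhere well above background in day-37 controls and passed the filter through later groups, so their calls add no support to the count. With only probes well above background on all 32 arrays, 8 genes were called in each course. The runt course also gave 10 calls, 6 higher and 4 lower, beside 27.1% of all features, 14.9% higher and 12.2% lower. The median change was 0.00 in controls and 0.06 in runts, beside -0.02 and 0.04 over all features. Within the SLC7 family, members were called in both directions. More than 1 probe passed the filter for 10 of the 37 genes, and second probes are given beside the results they bear on.

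**Figure D1:**
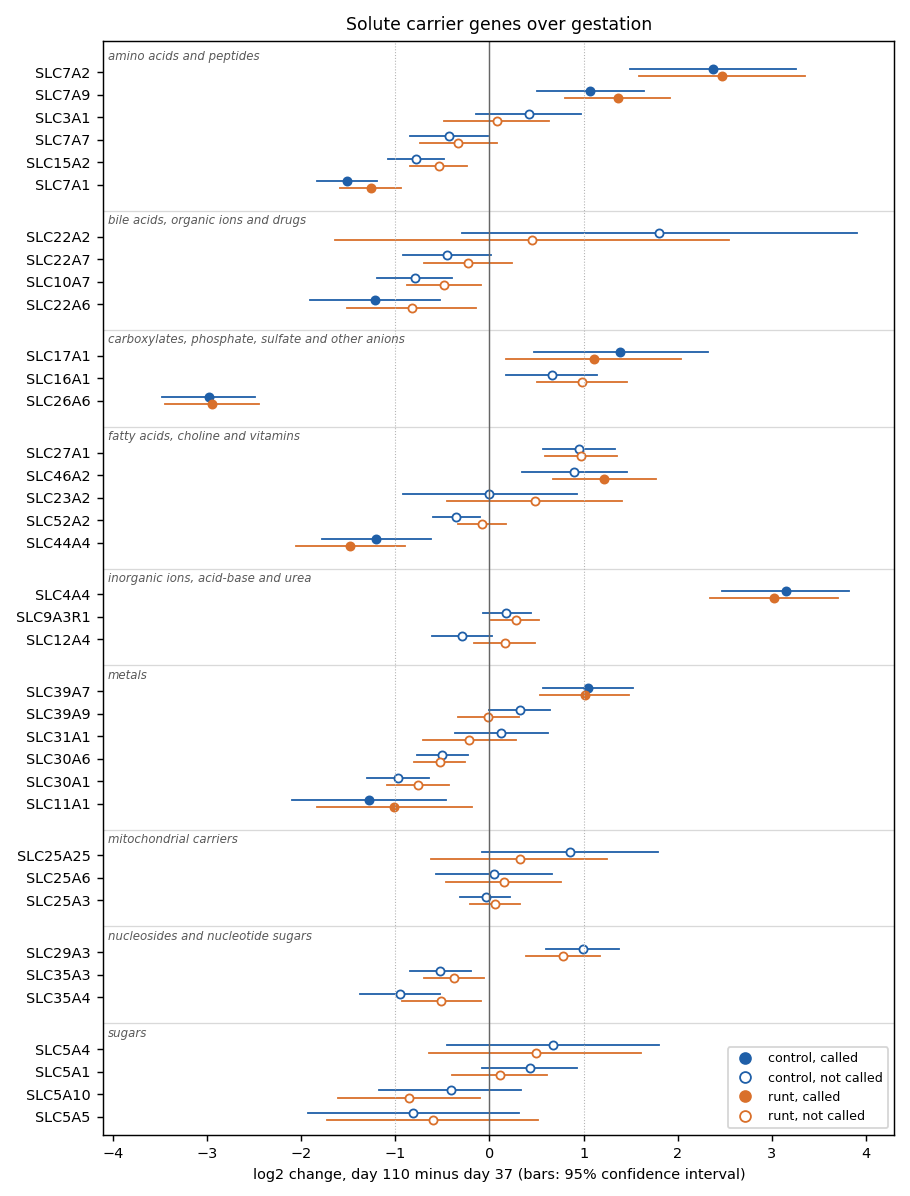
Log2 change from day 37 to day 110 of each of the 37 genes in control (blue) and runt (orange) liver, grouped by cargo, with 95% confidence intervals from the limma fit. Filled points were called; SLC26A6 lies at -2.98 in controls, and SLC4A4 is drawn at 3.15 against day-37 signals not well above background, where the fold is at least 4.82.

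Among the 6 carriers of amino acids and peptides, 2 rose and 1 fell in controls over the whole course, and the same counts held in runts. SLC7A2, a carrier of arginine, lysine and ornithine typical of liver, rose. Its levels in controls at day 37 were 0.01, 0.51, 0.65 and 0.38, and at day 110 they were 2.71, 2.69, 2.72 and 2.92. All 4 late arrays lay above all 4 early ones, and the gain was 2.37 (SE 0.43, n = 4 a group), or 5.18-fold, with a limma adjusted p of 4.05e-05. In runts the rise was 2.47 (SE 0.43), from a mean of 0.19 to 2.66. The day-50 controls were spread widely, at 0.68, -0.40, -0.88 and 1.86, and overlapped the day-70 controls, though the step from day 50 to day 70 was called at 1.55 (SE 0.43, adjusted p = 0.0104). That call was lost without the third day-50 control, with only the arrays compared and within each slide set.

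SLC7A1, which carries the same cationic amino acids in most cell types, went the other way. Control levels were 4.00, 3.87, 3.42 and 3.98 at day 37 and 2.37, 2.52, 2.13 and 2.21 at day 110. The groups did not overlap, and the change was -1.51 (SE 0.16), a 2.85-fold fall with an adjusted p of 6.85e-09. Its mean was lower at each later day in both courses, and it fell by 1.26 (SE 0.16) over the runt course. The gene has a second, dim probe that was well above background on at most 3 arrays of a group. That probe changed by -0.11 (SE 0.52) in controls and -1.06 (SE 0.52) in runts, neither of which was called, and the mean over both probes gave -0.81, short of 2-fold.

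SLC7A9 and SLC3A1 encode the light and heavy subunits of the transporter of cystine and dibasic amino acids, best known from kidney and gut. SLC7A9 rose between day 70 and day 110. Control levels at day 70 were 1.02, -0.45, 1.21 and 0.69, and at day 110 they were 1.71, 1.92, 1.67 and 1.70. The late arrays all lay above the earlier ones, by 1.14 on average (SE 0.27, adjusted p = 0.00243), and the step in runts was 1.11 (SE 0.27, adjusted p = 0.00326). Without the second day-70 control, the lowest of its group, the control step was no longer called, and without the second day-70 runt the runt step was not. The runt step was also not called with slide as a block or on slides 4 to 9 alone. SLC3A1 also rose at this step in controls, from -3.86, -4.25, -3.10 and -3.31 to -2.80, -2.44, -2.72 and -2.03, a gain of 1.13 (SE 0.27, adjusted p = 0.00223). That call too was lost without the second day-70 control, and it was lost without the fourth day-110 control. In runts the SLC3A1 mean went from -3.21 to -2.88, and the step was not called. Under normexp background correction neither gene was called at this step, in controls or in runts. Normexp was run with an offset of 50 added to every signal, beside array 75th percentiles of 177 to 460 in the processed signal. The offset shrinks changes between dim signals, so a dim gene's call lost under normexp says little about that gene. Over the whole control course SLC3A1 gained 0.42 (SE 0.27) and was not called, while SLC7A9 gained 1.07 (SE 0.27, adjusted p = 0.00165). Without the third day-37 control that gain was 0.95, short of 2-fold, and under normexp background correction it was 0.80.

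SLC7A7, a light subunit that exports cationic amino acids, had its highest mean at day 70. Its control levels were 4.80, 4.52, 5.07 and 4.47 at day 70 and 4.10, 3.30, 3.42 and 3.81 at day 110, and the fall of 1.06 (SE 0.20, adjusted p = 0.00018) was called. Without the third day-70 control, or the second or the third day-110 control, the change was -0.94 to -0.98, short of 2-fold. The authors' deposited table (-0.98), quantile normalization, slide as a block, slides 1 to 3 alone (-0.96) and the mean over probes also ended the call. A second probe changed by -0.40 (SE 0.42) at that step and was not called. The peptide carrier SLC15A2 changed by -0.78 (SE 0.15) in controls over the whole course, with an adjusted p of 6.37e-05 but under 2-fold.

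**Figure D2:**
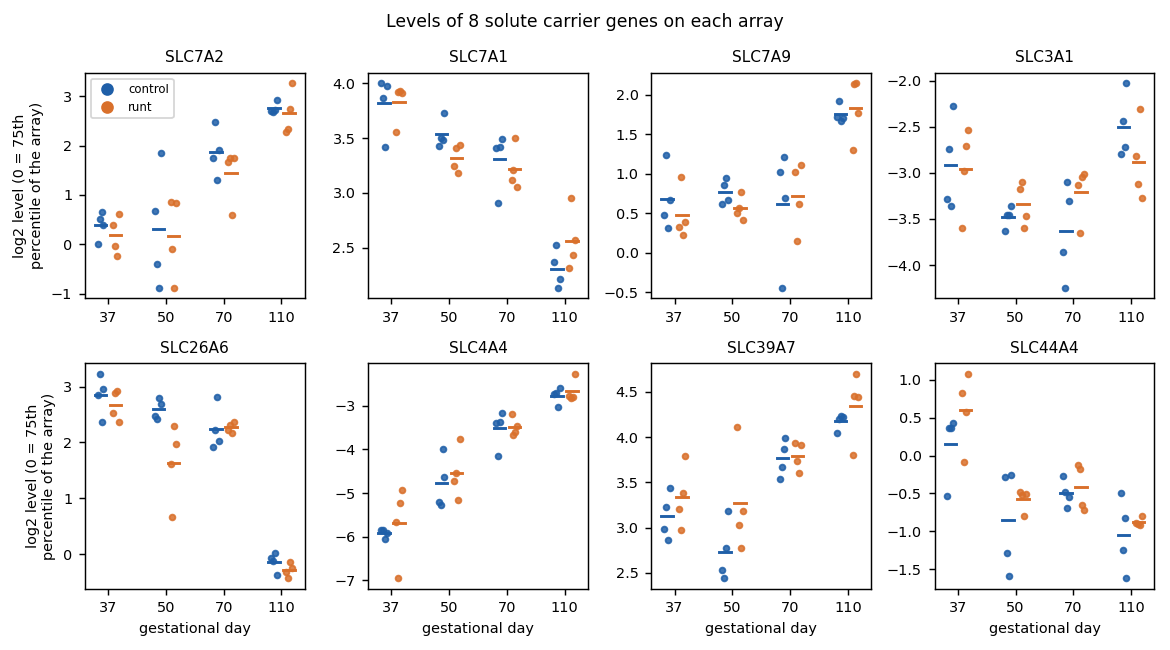
Log2 level on each array of 8 genes by gestational day, 4 control (blue) and 4 runt (orange) fetuses a day, with bars at group means. SLC26A6 drops between day 70 and day 110, the mean of SLC4A4 is higher at each later day, and the day-50 runts of SLC26A6 (0.66 to 2.29) lie below the day-50 controls (2.42 to 2.80).

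Of the 3 carriers of carboxylates, phosphate and other anions, SLC26A6 gave the largest fall among the 37 genes. It exchanges chloride for bicarbonate, oxalate or formate. Controls stood at 2.85, 3.23, 2.36 and 2.95 at day 37, between 1.91 and 2.81 at day 70, and at -0.07, -0.12, 0.02 and -0.37 at day 110. The day-110 arrays lay below every earlier control array, and most of the fall came in the last step, at -2.38 (SE 0.24, adjusted p = 1.75e-08). The whole control course gave -2.98 (SE 0.24), a 7.90-fold fall with an adjusted p of 6.87e-11, and the runt course gave -2.95 (SE 0.24). A second probe for the gene fell by 3.07 (SE 0.21) in controls. Within slides 4 to 9 the control change was -2.87 and was called. Within slides 1 to 3 it was -3.32, but there the fourth day-37 and the fourth day-110 control were alone in their groups.

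SLC17A1, a sodium-dependent phosphate and urate carrier, was dim throughout and passed the filter only through the day-50 and day-110 controls, with 3 arrays each. It was well above background on no day-37 control. Control levels were -7.06, -5.10, -5.56 and -5.71 at day 37 and -4.98, -3.95, -4.51 and -4.41 at day 110, without overlap. The gene was at least 1.42-fold higher at day 110 (adjusted p = 0.0108). The log2 change of 1.39 became 0.99 without the first day-37 control and 0.04 under normexp, and neither was called. The normexp offset shrinks changes between signals this dim, so the normexp value does not test the change. SLC16A1, which carries lactate and ketone bodies, gained 0.66 (SE 0.23) in controls and 0.98 (SE 0.23) in runts, both short of 2-fold, and its second probe gained 0.87 (SE 0.27) and 1.20 (SE 0.27), of which the runt value was called.

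Among the 3 carriers of inorganic ions, SLC4A4, the sodium bicarbonate cotransporter, rose over the course, with a higher mean at each later day. Its control levels were -5.84, -5.85, -6.04 and -5.92 at day 37, -5.20, -5.28, -4.00 and -4.63 at day 50, -3.39, -4.15, -3.37 and -3.16 at day 70, and -2.73, -2.72, -3.03 and -2.60 at day 110. It was well above background on no day-37 control and on all 4 at day 110. The level was at least 4.82-fold higher at day 110 than at day 37 in controls (log2 change 3.15, SE 0.33, adjusted p = 7.83e-09), and at least 5.50-fold higher in runts. Under normexp background correction the control change shrank to 0.64 (limma adjusted p = 0.19), and neither course was called. The normexp offset of 50 shrinks changes that start from signals this dim, so that loss does not test the rise. The step from day 37 to day 50 was the least secure: the gene was at least 1.20-fold higher at day 50 (adjusted p = 0.0332), and it was called neither within slides 1 to 3 nor within slides 4 to 9. Leaving out the second, the third or the fourth day-37 control, or the third or the fourth day-50 control, also ended that call. So did the authors' deposited table, quantile normalization, no filter on dim probes, slide as a block and normexp. The potassium-chloride cotransporter SLC12A4 changed by -0.29 (SE 0.15) and SLC9A3R1 by 0.18 (SE 0.12), neither of them called.

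Of the 6 metal carriers, SLC39A7, which releases zinc from the endoplasmic reticulum, rose in both courses. Control levels were 2.98, 3.23, 2.86 and 3.44 at day 37 and 4.04, 4.20, 4.23 and 4.22 at day 110, without overlap. The rise was 1.05 (SE 0.23, adjusted p = 0.000388) in controls and 1.01 (SE 0.23) in runts, both barely past 2-fold, and leaving out the first or the third day-37 control ended the control call. The runt call was lost with the authors' deposited table, quantile normalization, slide as a block, slide as a random block and slides 1 to 3 alone. It was also lost without the first or the second day-37 runt or the second, the third or the fourth day-110 runt. SLC30A1, which exports zinc from the cell, changed by -0.97 (SE 0.16, adjusted p = 1.31e-05) in controls and fell short of 2-fold. SLC11A1, a divalent metal carrier of phagocytes, was called lower, at -1.28 (SE 0.40, adjusted p = 0.0083) in controls and -1.01 (SE 0.40) in runts. It is named after its values were seen, because its groups overlapped: day-37 controls ran from -0.77 to 0.38 and day-110 controls from -2.26 to -0.49. The control call was lost without the fourth day-110 control, with slide as a block, within each slide set and under normexp. The runt call was lost under those settings, with the authors' deposited table, quantile normalization or only the arrays compared, and without the third day-37 runt or the third or the fourth day-110 runt. Over the same span in controls the summed 5 Kupffer cell and monocyte markers rose. The 4 granulocyte markers lay between 18.3 and 76.1, then between 47.9 and 64.7. The part of either cell type in the fall of SLC11A1 was not tested.

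Carriers of fatty acids, choline and vitamins gave 1 call of 5 in controls and 2 of 5 in runts. SLC44A4, a choline-like transporter that carries thiamine pyrophosphate, fell by 1.20 (SE 0.28, adjusted p = 0.00076) in controls and by 1.48 (SE 0.28) in runts. Most of this came early, with day-37 controls at -0.53, 0.36, 0.36 and 0.43 and day-50 controls at -0.28, -1.28, -1.59 and -0.26, which overlap through the first day-37 control. The other 2 probes for the gene that passed the filter fell by 1.18 and 1.61 in controls and were called too. Within slides 4 to 9 the control change was -0.92 and was not called. Within slides 1 to 3 it was -2.06, but there the fourth day-37 and the fourth day-110 control were alone in their groups. SLC27A1, which imports long-chain fatty acids, changed by 0.95 (SE 0.18) in controls and 0.97 (SE 0.18) in runts, just short of 2-fold with adjusted p of 9.17e-05 and 7.30e-05. SLC46A2, named after its values were seen, was called in runts at 1.22 (SE 0.27) and not in controls, at 0.90 (SE 0.27). The runt call was lost without the fourth day-37 runt, on slides 4 to 9 alone and under normexp. Whether the 2 courses differ for this gene was tested only through the test of whether the runt effect differs between days, which called none of the 37.

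The 4 carriers of bile acids, organic ions and drugs included 1 gene whose direction depended on the probe. SLC22A6 encodes the organic anion exchanger known from kidney. By its brighter probe it fell in controls, from -0.28, -0.10, -0.68 and -0.62 at day 37 to -1.00, -2.03, -1.54 and -1.99 at day 110, a fall of 1.22 (SE 0.33, adjusted p = 0.0031). In runts the mean of this probe went from -0.71 to -1.53, which was not called. The control call was lost under normexp. Within groups the probe differed by -0.55 (SE 0.14) on slides 1 to 3 against slides 4 to 9. The dimmer SLC22A6 probe was on no array well above background at day 37 and on all 4 at day 110, in controls and in runts. That probe rose, by at least 2.55-fold in controls (log2 change 3.02, SE 0.44, adjusted p = 2.1e-06) and at least 4.96-fold in runts. Both probes carry the same transcript accession. With the mean over both probes the control change reversed, to 0.90 (adjusted p = 0.0211).

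**Figure D3:**
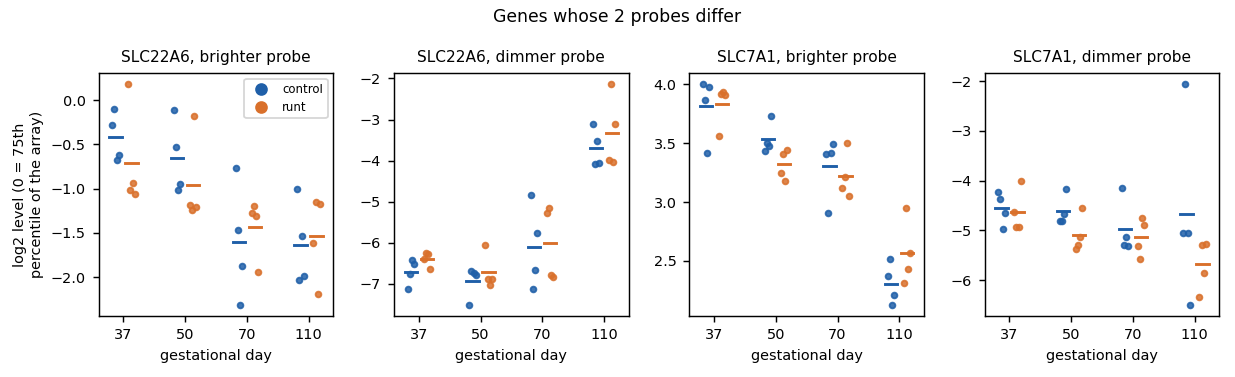
Log2 level on each array by gestational day for both probes of SLC22A6 and of SLC7A1 (blue control, orange runt, bars at group means); each panel has its own scale. The SLC22A6 probes move in opposite directions, and the dimmer SLC7A1 probe lies near background.

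SLC10A7, a relative of the bile acid carriers, changed by -0.79 (SE 0.19) in controls. SLC22A7, an organic anion carrier of liver, changed by -0.45 (SE 0.23). SLC22A2, an organic cation carrier, varied so much between arrays that a difference of 1.80 (SE 1.01) was not called. Its day-37 controls ran from -7.46 to -2.12, and 2 of the 4 were well above background. The 3 mitochondrial carriers gave no call: SLC25A3, the phosphate carrier, changed by -0.04 (SE 0.13), SLC25A6, an ADP/ATP exchanger with near-identical relatives that could share signal, by 0.05 (SE 0.30), and SLC25A25, an ATP-magnesium and phosphate carrier, by 0.86 (SE 0.45). By the second SLC25A6 probe the mean was higher at day 110, going from 5.84 to 6.40 in controls and from 6.21 to 6.79 in runts. The 3 nucleoside and nucleotide sugar carriers and the 4 of the sugar family gave no call either. SLC5A10, of the sugar family and named after its values were seen, gave -0.41 (SE 0.36) in controls and -0.85 (SE 0.36) in runts by the probe used. Its second probe was called lower in both, at -1.47 (SE 0.42, limma adjusted p = 0.00458) and -1.11 (SE 0.42, adjusted p = 0.0293). SLC29A3, a lysosomal nucleoside carrier, came nearest at 0.99 (SE 0.19, limma adjusted p = 7.41e-05). It was called in 6 of 21 alternatives, among them slide as a block and slide as a random block. SLC35A4, a relative of nucleotide sugar carriers, changed by -0.95 (SE 0.20). Its second probe went from a mean of -2.47 to -3.13 in controls and from -2.12 to -2.70 in runts. SLC5A1, the intestinal glucose carrier, changed by 0.43 (SE 0.24) and SLC5A5, the iodide carrier placed here by family number, by -0.81 (SE 0.54).

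The single steps gave few calls. In controls 2 genes were called from day 37 to day 50 (3.41% of all features), 4 from day 50 to day 70 (7.69%) and 5 from day 70 to day 110 (12.4%). In runts the counts were 3 (5.82%), 2 (7.96%) and 4 (11.1%). Between them the courses shared 9 of the genes called over the whole span. The share of all features called in both was not counted, so this overlap has no background. SLC4A4 and SLC17A1, both among the 9, were well above background on no day-37 runt, and SLC17A1 on 2 of the 4 day-110 runts. The runt call of SLC17A1 was lost with slide as a block, on slides 4 to 9 alone, with only the arrays compared and without a dim-probe filter. The other transport genes, taken from a list of ABC pumps, aquaporins, sodium pumps, SLCO genes and the 3 carriers left out by name, gave 9 calls of 15 measured in controls, 6 higher and 3 lower, beside 29.3% of all features. Of these, AQP9, a glycerol channel, rose by 2.20 (SE 0.25) and AQP1, a water channel of red cells and vessels, fell by 3.65 (SE 0.35).

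Some carriers differed between sets of slides within groups. Slides 1 to 3 held 12 arrays and slides 4 to 9 held 20. Of the 37 genes 13 differed between the sets, 9 higher and 4 lower on slides 1 to 3, beside 27.3% of all features, 10.9% higher and 16.4% lower. SLC5A5 differed by -1.25 (SE 0.16) and SLC25A6 by -0.68 (SE 0.09). For both genes this exceeded the change over the whole control course.

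**Figure D4:**
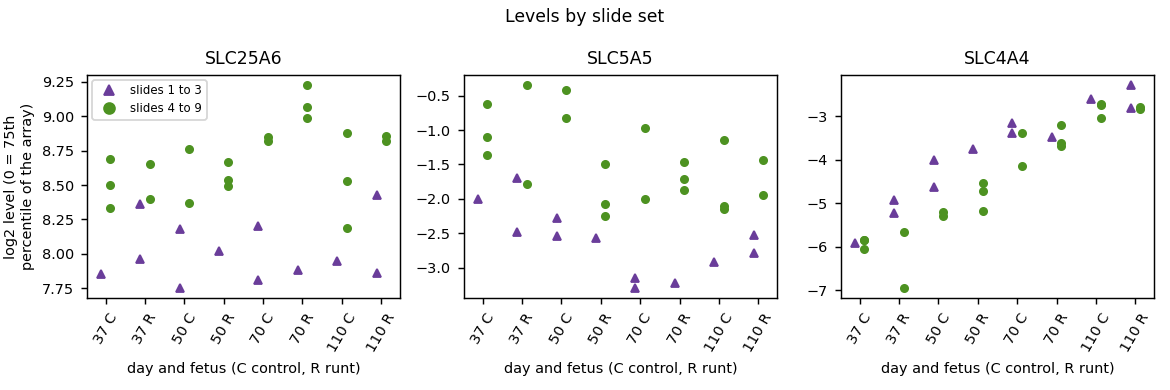
Log2 level on each array of SLC25A6, SLC5A5 and SLC4A4 in the 8 groups, with triangles for slides 1 to 3 and circles for slides 4 to 9. Triangles sit low within groups for SLC25A6 and SLC5A5, while the rise of SLC4A4 over days exceeds its slide-set difference of 0.55.

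Runts and controls were then compared at each day. None of the 37 genes was called by limma at any day, for the mean runt effect over days, or for a runt effect that differs between days. Over all features 0% were called at day 37 and at day 70, 0.0663% at day 50, 0.014% at day 110, 0.244% for the mean effect and 0.00349% for the difference between days. At an unadjusted p under 0.05 there were 1, 5, 0 and 2 of the 37 at days 37, 50, 70 and 110, 6 for the mean effect and 1 for the difference between days. The shares above are at the adjusted threshold, so they are no background for these counts, and no excess among the 37 can be read from them. The genes named in this comparison were chosen after their values were seen.

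The nearest was SLC26A6 at day 50. Runts were at 1.61, 0.66, 2.29 and 1.97 and controls at 2.48, 2.42, 2.80 and 2.68, so every runt lay below every control. The difference was -0.96 (SE 0.24, 95% confidence interval -1.46 to -0.46), with a limma adjusted p of 0.142. Without the third day-50 runt, the highest of its group, it was called. Without the array of the other scan date no carrier was called at day 50. A second probe gave -0.82 (SE 0.21, adjusted p = 0.153). At day 50 the summed cell cycle markers were 91.2 to 123 in runts and 123 to 151 in controls, and the erythroid markers 58.5 to 102 and 99.3 to 112. The 5 lymphocyte markers were 0.727 to 0.977 in runts and 1.23 to 1.71 in controls, without overlap, with 1 of the 5 at background in each group. The part of these markers in the difference was not tested. At day 110 the gene differed by -0.14 (SE 0.24).

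Other genes past the unadjusted threshold were smaller or dimmer. At day 50 SLC15A2 was 0.39 higher in runts (interval 0.09 to 0.69, adjusted p = 0.474 by limma) and SLC39A7 0.54 higher (interval 0.07 to 1.02). At day 110 SLC52A2, a riboflavin carrier, was 0.40 higher in runts, with levels of 0.98, 1.03, 0.88 and 1.14 against 0.74, 0.64, 0.44 and 0.58 (interval 0.15 to 0.66, adjusted p = 0.748). Its other 2 probes gave 0.32 and 0.24. SLC12A4 was 0.45 higher in runts at day 110 (interval 0.13 to 0.77). At day 50 SLC10A7 differed by -0.41 (interval -0.80 to -0.01). For the mean runt effect over days SLC25A25 (-0.67) and SLC17A1 (-0.61) had the lowest values, but both were dim and passed the filter only through control groups. The other genes ran from -0.31 for SLC26A6 (interval -0.56 to -0.07, limma adjusted p = 0.366) to 0.32 for SLC22A2.

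**Figure D5:**
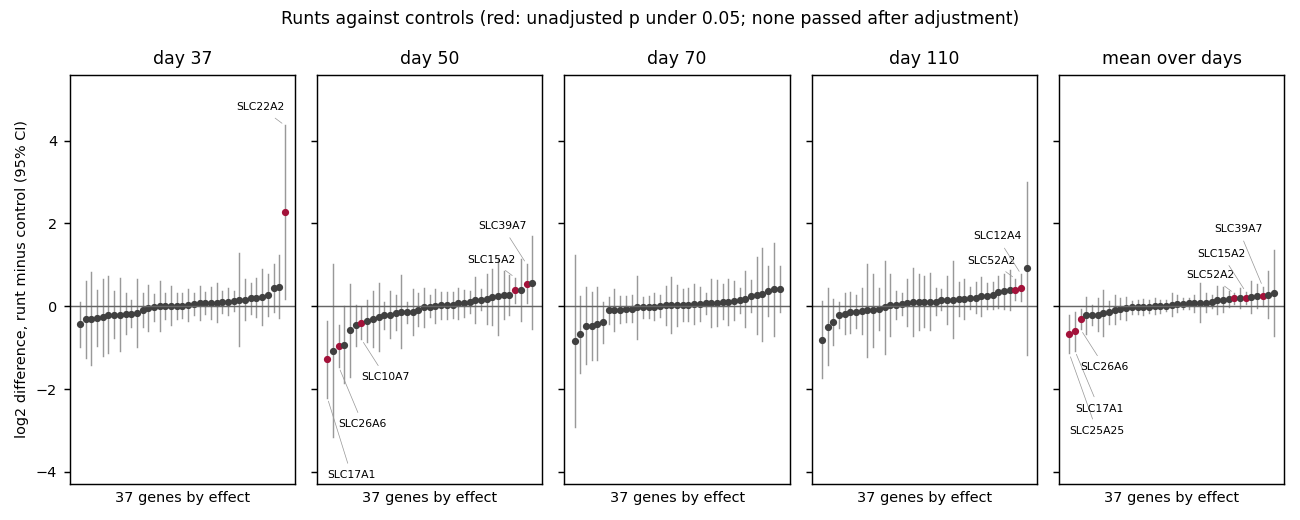
Log2 difference, runt minus control, of the 37 genes at each day and averaged over days, sorted by size within each panel, with 95% confidence intervals. Red marks an unadjusted p under 0.05; none passed after adjustment, and the wide interval at day 37 (0.18 to 4.37) belongs to SLC22A2.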

How the data were processed

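RNA of single fetal livers was labelled with Cy3 and hybridised to Agilent arrays, 32 arrays on 9 slides, per the labels' protocols. The deposited scanner files hold processed signal intensities, background-subtracted by Feature Extraction 10.7.3.1 per the file headers. Partek was used by the authors, per the submitters' processing notes, and the deposited table of log2 values correlated with the scanner intensities between 0.993 and 1 per array; its exact scale and normalization are not given in the sources used here.

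From the intensities, log2 values minus each array's 75th percentile were computed, control and outlier spots were left out, and spots of a probe were averaged. Probes called above background on fewer than 3 of 4 arrays in every group were dropped, and each symbol kept its brightest probe. No value was saturated. Accessions were named through the RefSeq and gene name tables, and all 37 genes matched. One mean for each of the 8 groups was fitted with limma 3.58.1 in R 4.3.3 (24 residual degrees of freedom), with p-values adjusted over 28673 features. The script was tested on simulated data.

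A fold is given as "at least" where the dimmer group was nowhere well above background: the brighter mean was then set against, on each array, the higher of the lowest well-above-background signal and the probe's own signal. Genes are named where they were among the largest non-overlapping called changes of a control step or course with the brighter group fully above background, where they were called between runts and controls, or where they had the 2 smallest adjusted p of their cargo group over the control course; others are said to be named after their values were seen, as were SLC15A2, SLC16A1, SLC9A3R1, SLC22A7, SLC22A2 and SLC25A6. The members, lists and tests were chosen with earlier results of these data known. Marker lists for hepatocytes, erythroid cells, granulocytes, Kupffer cells and monocytes, lymphocytes, megakaryocytes, endothelium, stellate cells, bile duct and cell cycle were summed on the linear scale. Probe sequences were not used here. One gene that did not pass the filter is not reported here.

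Alternatives were normexp background correction with an offset of 50, the authors' deposited log2 table, quantile normalization and other filters on dim probes. Others were slide as a block, slide as a random block, each slide set alone and a replicate block. The rest were only the arrays compared, the mean over probes, and each array left out.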

Additional observations from a re-analysis of the deposited data

Results flagged for a closer look

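Levels of 1 array stood apart from the other 3 of its group in 17 of 168 groups looked at among the named genes, and in 23 of 296 among all 37 genes. Chance alone gives about 1 in 20. Each value below is a log2 level relative to the array's 75th percentile.

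In the amino acid group, SLC7A1 was at 3.56 in the first day-37 runt, with the others between 3.91 and 3.93, and at 2.91 in the second day-70 control, with the others between 3.41 and 3.49. SLC7A2 was at 0.60 in the third day-70 runt, below the others at 1.66 to 1.75, and at 2.92 in the fourth day-110 control. SLC7A9 was at 1.92 in the second day-110 control.

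SLC22A6 stood apart in 3 runt groups, high at 0.18 in the first day-37 runt and -0.18 in the third day-50 runt, and low at -1.94 in the fourth day-70 runt. SLC44A4 was low at -0.53 in the first day-37 control and at -0.80 in the third day-50 runt. SLC17A1 was low at -5.77 in the second day-110 runt, and SLC4A4 was high at -2.27 in the fourth.

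SLC25A25 was high at -2.57 in the third day-110 control, with the others between -4.70 and -4.38. SLC39A7 was low at 4.04 in the first day-110 control. SLC10A7 was low at -0.96 in the fourth day-50 control, SLC12A4 high at 1.09 in the fourth day-37 control, and SLC35A4 low at -1.62 in the first day-37 runt.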

How the results depend on the processing

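Counts of genes called are given here for the steps from day 37 to 50, 50 to 70, 70 to 110 and the whole course, as 2, 4, 5 and 10 in controls and 3, 2, 4 and 10 in runts. With normexp they were 0, 1, 2 and 5 in controls, and in runts 0 from day 50 to 70, 2 from day 70 to 110 and 6 over the course; 16 genes were then called between runts and controls at day 50 and 11 for the mean runt effect, beside 17060 and 13927 of all 28673 features. That fit moved the median of all features at day 50 by 0.41, and the log2 values of 6 arrays, all of runts, had an SD of 0.85 to 1.77 against 1.96 to 2.37 on the others. With flagged backgrounds left out of its fit (chosen after seeing the data) the counts were 0, 2, 2 and 5 in controls and 1, 1, 2 and 6 in runts, with 0 between runts and controls and a median of 0.01.

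The authors' deposited table, quantile normalization and only probes well above background on all 32 arrays each gave 1 and 2 calls for the first and second control steps and 1 for the second runt step. Without a filter on dim probes the first control step gave 1. Slide as a block gave 1 for the first control step and 1 for the second runt step. Using only the arrays compared gave 1 for each of the first control step and the first and second runt steps. Slides 1 to 3 alone gave 0, 0 and 3 for the control steps and 0, 0 and 2 for the runt steps, and slides 4 to 9 alone gave 0 and 1 for the first and second control steps and 1 for the first and last runt steps; fewer arrays enter these fits. Leaving out 1 array gave 0 to 2, 2 to 5, 4 to 6 and 10 to 13 in controls and 1 to 4, 0 to 2, 2 to 4 and 8 to 11 in runts, and 0 to 1 between runts and controls at day 50.

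SLC22A6 reversed to 0.90 with the mean over probes. SLC25A3, at -0.04, reversed to 0.10 with both forms of normexp, 0.02 on slides 4 to 9, and, with each array left out in turn, ranged from -0.09 to 0.05. The cause was not tested. Among the values of named genes, the call was lost in 40 and gained in 4 under the other alternatives, and lost in 18 and gained in 11 with 1 array left out. Of 16 same-numbered control and runt pairs 13 correlated over 0.1 (all at days 37 and 110, not all at days 50 and 70; lowest -0.09), and 8 correlated best with their own number. The labels name littermate pairs but do not say that the number marks a litter. All arrays numbered 4 were on slides 2 and 3, and slide 1 held only arrays numbered 3. Number and slide set thus partly coincide, and their parts in these correlations were not told apart. A replicate block changed no call and gave 10 calls over the control course.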
